A study of Homo sapiens with 13 samples.

Results

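Claudins, desmosomal proteins and the occludin, zonula occludens and junctional adhesion molecules that work with them were examined as 1 group of genes in the chromatin maps of MDA-MB-231 cells. The group held 43 of the 19894 protein-coding genes of GENCODE release 44 placed on hg19. It took every gene whose symbol is CLDN followed by a number (24 claudins), 7 desmosomal cadherins (DSC1 to DSC3 and DSG1 to DSG4), 5 desmosomal plaque proteins (DSP, JUP and PKP1 to PKP3), 3 MARVEL proteins (OCLN, MARVELD2 and MARVELD3), 3 tight junction scaffolds and F11R, also called JAM-A. The rule read gene symbols alone.

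MDA-MB-231 is an established line of human triple-negative breast cancer cells of the basal B type. Untreated cells had been subjected to ChIP-seq with antibodies to 3 histone marks (H3K4me1, H3K4me3 and H3K27ac), to Pol II and to CTCF in 2 replicates each, and to p300/CBP in 1 library made from pooled immunoprecipitations, beside 2 input libraries that were not analysed here. For each antibody a single list of peaks from the merged replicates was read, so the spread between replicates, and any test that needs it, was not available. All samples came from this 1 cell line and no condition was compared.

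Claudins are the membrane proteins that form the strands of tight junctions and set which ions pass between epithelial cells. Occludin and the other MARVEL proteins sit in the same strands, and the zonula occludens scaffolds tie them to actin. Desmosomes hold epithelial cells together through desmocollins and desmogleins, which plakoglobin, the plakophilins and desmoplakin link to keratin filaments. Breast tumours with low claudin and E-cadherin expression form the claudin-low type, in which MDA-MB-231 is usually placed.

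Among the marks, H3K4me3 lies at active or poised transcription start sites (TSSs), H3K27ac at active promoters and enhancers, and H3K4me1 at enhancers and around promoters. p300 and CBP are acetyltransferases that write H3K27ac, Pol II transcribes the genes, and CTCF organises chromatin loops. A promoter was called a candidate active promoter (cAP) when the 3-kb window centred on its canonical TSS shared at least 1 bp with an H3K27ac peak, and a candidate inactive promoter (cIP) otherwise. A candidate active enhancer (cAE) was an H3K4me1 region that touched H3K27ac and no promoter window, and a candidate inactive enhancer (cIE) was one without H3K27ac.

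Of the 43 genes, 18 were cAPs (41.9%, 95% Wilson interval 28.4 to 56.7), where 61.4% of all protein-coding genes were. H3K4me3 was found in 15 of the 43 windows (34.9%, 22.4 to 49.8) against 62.7% of all genes, and Pol II in 15 (34.9%, 22.4 to 49.8) against 58.4%. H3K4me1 was present in 22 windows (51.2%, 36.8 to 65.4) against 59.3%, CTCF in 4 (9.30%, 3.68 to 21.6) against 17.6%, and p300/CBP in 1 (2.33%, 0.412 to 12.1) against 0.769%. For H3K27ac, H3K4me3 and Pol II the interval of the group lay below the share of all genes, and for the other lists it held that share. The intervals cover counting error only, treat genes that lie side by side as separate, and the depth behind the lists is unknown.

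**Figure D1:**
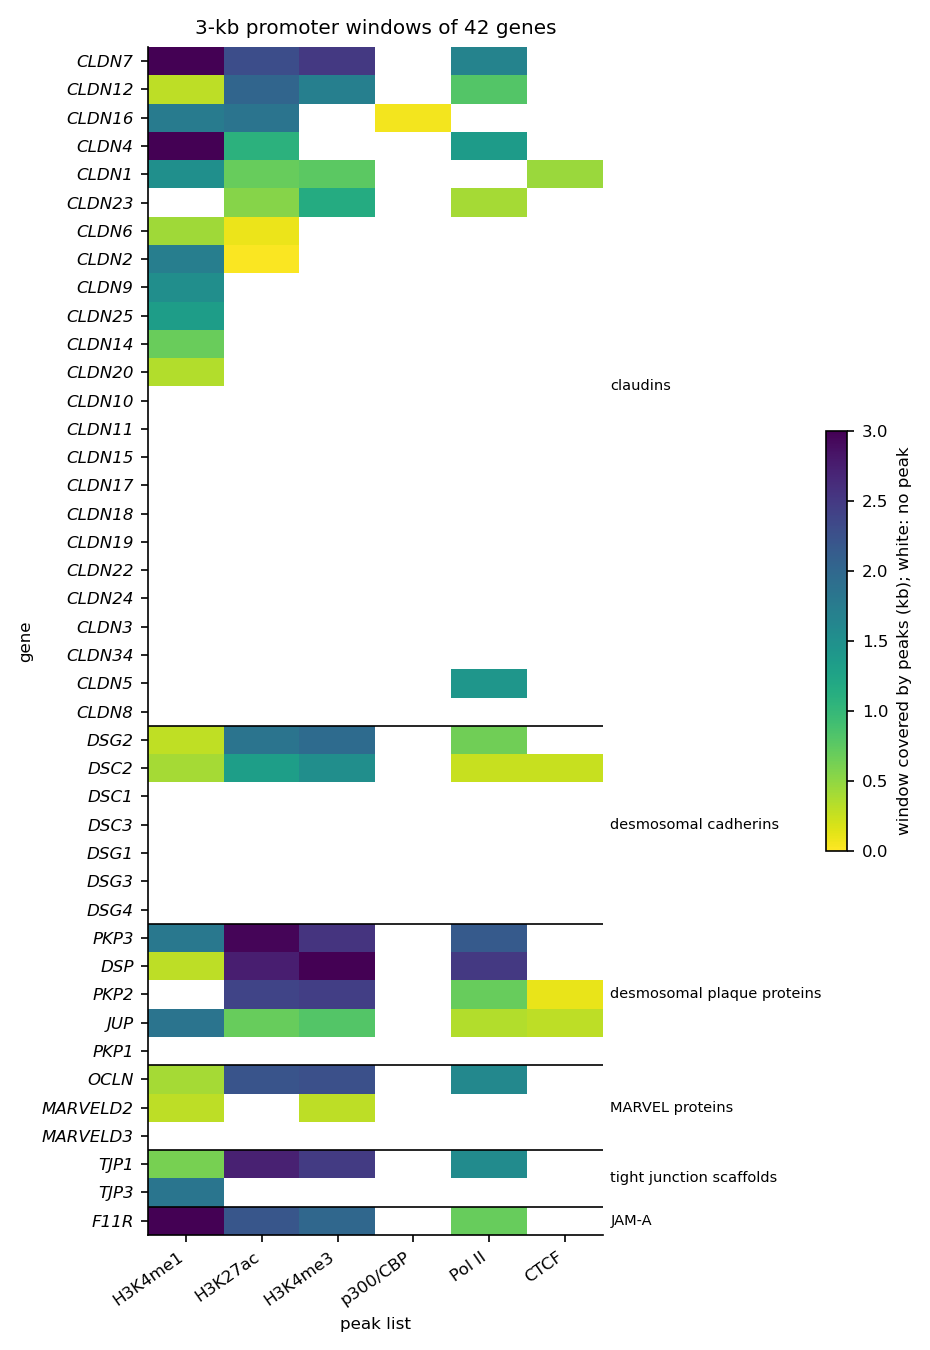
Kilobases of each 3-kb promoter window covered by peaks (colour, 0 to 3 kb; white, no peak) for 42 of the genes (rows, by role) and the 6 peak lists (columns). DSP, PKP2, PKP3 and TJP1 carry wide H3K27ac and H3K4me3, and 18 windows are white in all 6 columns.

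The shortfall was carried mainly by the claudins. Only 8 of 24 claudins had H3K27ac (33.3%, 18.0 to 53.3), 4 had H3K4me3 (16.7%, 6.68 to 35.9) and 5 had Pol II (20.8%, 9.24 to 40.5), and for each of these lists the interval ended below the share of all genes. Among the other 19 genes H3K27ac was found in 10 (52.6%, 31.7 to 72.7), H3K4me3 in 11 (57.9%, 36.3 to 76.9) and Pol II in 10 (52.6%, 31.7 to 72.7), and these intervals held the shares of all genes. The difference between claudins and the rest was not tested.

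**Figure D2:**
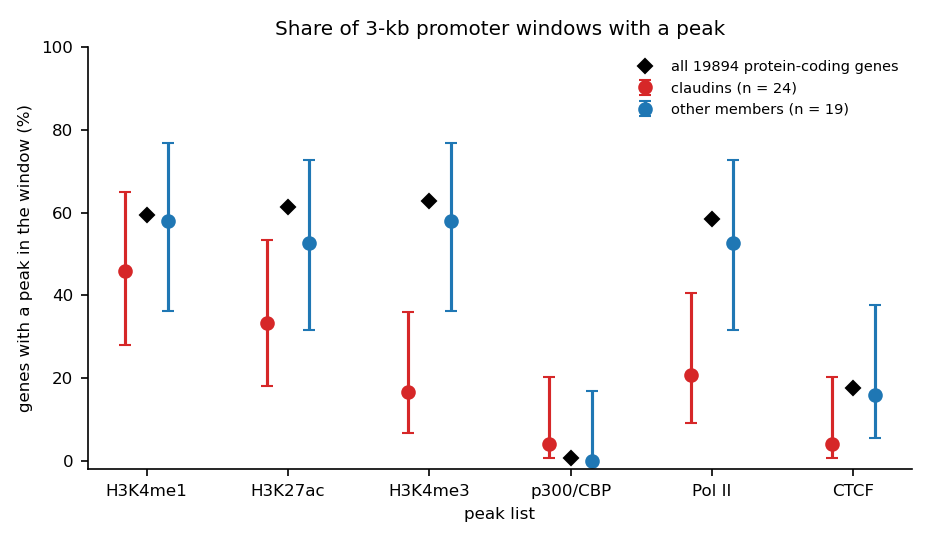
Percent of 3-kb promoter windows that hold a peak of each list (x axis) for the 24 claudins (red) and the other 19 genes (blue), with 95% Wilson intervals, and for all 19894 protein-coding genes (diamonds). The claudins stand at 16.7% for H3K4me3, where all genes stand at 62.7%.

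Of the plaque proteins 4 of 5 were cAPs (DSP, JUP, PKP2 and PKP3, but not PKP1, interval 37.6 to 96.4), of the cadherins 2 of 7 (DSC2 and DSG2, 8.22 to 64.1) and of the MARVEL proteins 1 of 3 (OCLN, 6.15 to 79.2), while TJP1 and F11R were cAPs and TJP3 was not. These intervals overlap and each holds the share of all genes, 61.4%, so the classes cannot be ranked from these counts. The claudins that were cAPs were CLDN1, CLDN2, CLDN4, CLDN6, CLDN7, CLDN12, CLDN16 and CLDN23. No peak of any list was found in the windows of 18 genes (41.9%, 28.4 to 56.7, against 28.0% of all genes), namely CLDN3, CLDN8, CLDN10, CLDN11, CLDN15, CLDN17, CLDN18, CLDN19, CLDN22, CLDN24, CLDN34, DSC1, DSC3, DSG1, DSG3, DSG4, PKP1 and MARVELD3. With CLDN5, which held Pol II alone, 19 windows lacked any histone mark (44.2%, 30.4 to 58.9), where 30.4% of all windows did. The other 7 cIPs, CLDN5 among them, held H3K4me1, H3K4me3 or Pol II.

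Of the windows with H3K27ac, 4 lacked H3K4me3. H3K4me3 stood in 14 of the 18 windows with H3K27ac (77.8%, 54.8 to 91.0), where it stood in 97.7% of such windows of all genes. The 4 exceptions were all claudins (CLDN2, CLDN4, CLDN6 and CLDN16), which is 9.30% of the 43 genes (3.68 to 21.6) against 1.40% of all genes. This count rests on the window, as 2 genes remained with a 1-kb window (4.65%, 1.28 to 15.5, against 1.09% of all genes), 2 with a 5-kb window (against 1.78%) and 2 with at least 300 bp covered (against 1.31%). H3K27ac and H3K4me3 stood together in 14 of the 43 windows (32.6%, 20.5 to 47.5) against 60.0%. Within the windows with H3K27ac, Pol II was likewise present in 14 of 18 against 92.0%, H3K4me1 in 16 (88.9%, 67.2 to 96.9) against 85.3%, CTCF in 4 (22.2%) against 24.4%, and p300/CBP in 1 (5.56%, 0.988 to 25.8) against 0.990%. The 4 claudins without H3K4me3 did not form 1 kind, as 2 of them held only the edge of an H3K27ac peak.

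CLDN4, a claudin of simple epithelia, showed the fullest of these patterns. Its TSS (chromosome 7, 73245326, plus strand) lay in an H3K4me1 peak of 7250 bp that filled the window, under an H3K27ac peak of 550 bp reaching from -425 to 124 bp of the TSS, and under a Pol II peak of 1350 bp. A second H3K27ac peak of 650 bp followed downstream, and the nearest H3K4me3 peak lay 10.3 kb away. H3K27ac with Pol II and without H3K4me3 was seen in 0.281% of all windows, 56 genes in all. Within its gene body and 50 kb on either side CLDN4 had 3 cAEs, and the one 18.3 kb downstream held a p300/CBP peak. The 300 bases around its TSS (250 before and 50 after) held 2 matches to TGANTCA. This pattern takes in the AP-1 consensus, which has C or G in the middle, and also strings with A or T there.

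CLDN16, a claudin of the kidney that lets magnesium pass, had the only p300/CBP peak in the 43 windows. Its canonical TSS (chromosome 3, 190105952, plus strand) lay near the end of an H3K27ac peak of 4550 bp and an H3K4me1 peak of 6600 bp, both of which stretched upstream. The p300/CBP peak of 350 bp entered the window by 49 bp. Just outside the window, an H3K4me3 peak ended 1.80 kb upstream of the TSS and a Pol II peak 1.60 kb upstream. Most of this block of marks lay upstream of the annotated start. The central 300 bases of the p300/CBP peak (chr3:190104176-190104475, hg19, plus strand) are shown because they belong to the peak nearest to any start site of the group. Capitals mark the single TGANTCA match, whose middle base is T and not the C or G of the AP-1 consensus.

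CLDN16 p300/CBP peak: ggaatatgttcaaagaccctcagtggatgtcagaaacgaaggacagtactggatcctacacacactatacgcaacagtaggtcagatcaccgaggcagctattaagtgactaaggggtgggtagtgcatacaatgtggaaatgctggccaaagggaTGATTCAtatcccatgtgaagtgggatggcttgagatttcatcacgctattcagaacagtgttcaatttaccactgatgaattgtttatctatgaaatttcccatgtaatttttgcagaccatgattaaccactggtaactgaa

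CLDN2, a cation-pore claudin, was a cAP only through the last 19 bp of an H3K27ac peak that ended 1.48 kb upstream of its canonical TSS. That peak was 1750 bp wide and lay within an H3K4me1 peak of 4100 bp that reached over the TSS. A pair of p300/CBP peaks lay 2.23 and 2.38 kb upstream, inside the same H3K27ac peak, while the nearest H3K4me3 and Pol II peaks were 78.4 and 79.7 kb away. CLDN6, an embryonic claudin, held 83 bp of an H3K27ac peak of 5450 bp that also touched the windows of TNFRSF12A, HCFC1R1 and THOC6, and its own TSS was uncovered. With a 1-kb window, or with at least 300 bp of the window covered, CLDN2 and CLDN6 were no longer cAPs and 16 of the 43 genes remained (37.2%), against 59.3% and 60.2% of all genes.

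CLDN1, CLDN7, CLDN12 and CLDN23 carried H3K27ac together with H3K4me3. CLDN1, a barrier-forming claudin of skin and breast epithelium, had H3K27ac over 700 bp, H3K4me3 over 750 bp and CTCF over 450 bp on its TSS (chromosome 3, 190040235, minus strand) within an H3K4me1 peak of 1500 bp. No Pol II peak was found in its window, and the nearest lay 22.7 kb upstream. Among the 13 genes of the group whose TSS lay in an H3K4me3 peak, CLDN1 had the narrowest peak. Over all genes 10387 starts lay in such a peak, and for 1.49% of them the peak was narrower. Counted once per start, the median width was 2100 bp for the 13 genes and 2400 bp for all genes. TJP1 had the widest of the 13, at 4000 bp.

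CLDN7, which marks luminal and other simple epithelia, had a window filled by an H3K4me1 peak of 8600 bp, with 2096 and 200 bp of H3K27ac, 2146 and 354 bp of H3K4me3, and Pol II on both sides of the TSS but not over it. Another protein-coding start, ENSG00000262302, lies 0.389 kb away, so the marks cannot be assigned to CLDN7 alone. CLDN12, a claudin that lacks the usual scaffold-binding end, carried 2024 bp of H3K27ac, 1700 bp of H3K4me3 and 800 bp of Pol II over its TSS. CLDN23 carried 1150 bp of H3K4me3 over its TSS, with 550 bp of H3K27ac and 400 bp of Pol II just upstream of it. No cAE lay in the body of CLDN7 or within 50 kb of it, whereas CLDN1 had 6 and CLDN12 had 3.

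The pair CLDN1 and CLDN16 shared a stretch of 106 kb in which the gene model of CLDN16 begins next to the start of CLDN1. This stretch held 9 H3K4me1 peaks, 7 of H3K27ac, 4 of H3K4me3, 5 of p300/CBP, 2 of Pol II and 3 of CTCF, and 5 of the H3K4me1 regions were cAEs. The cAE 21.3 kb upstream of the CLDN1 TSS (chr3:190061551-190064901, 3350 bp) held 2 p300/CBP peaks, 1 Pol II and 1 H3K4me3 peak. The cAE 48.4 kb upstream (chr3:190088601-190093301, 4700 bp) held 1 p300/CBP peak. The Pol II peak nearest to CLDN1 lay in the first of these cAEs.

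**Figure D3:**
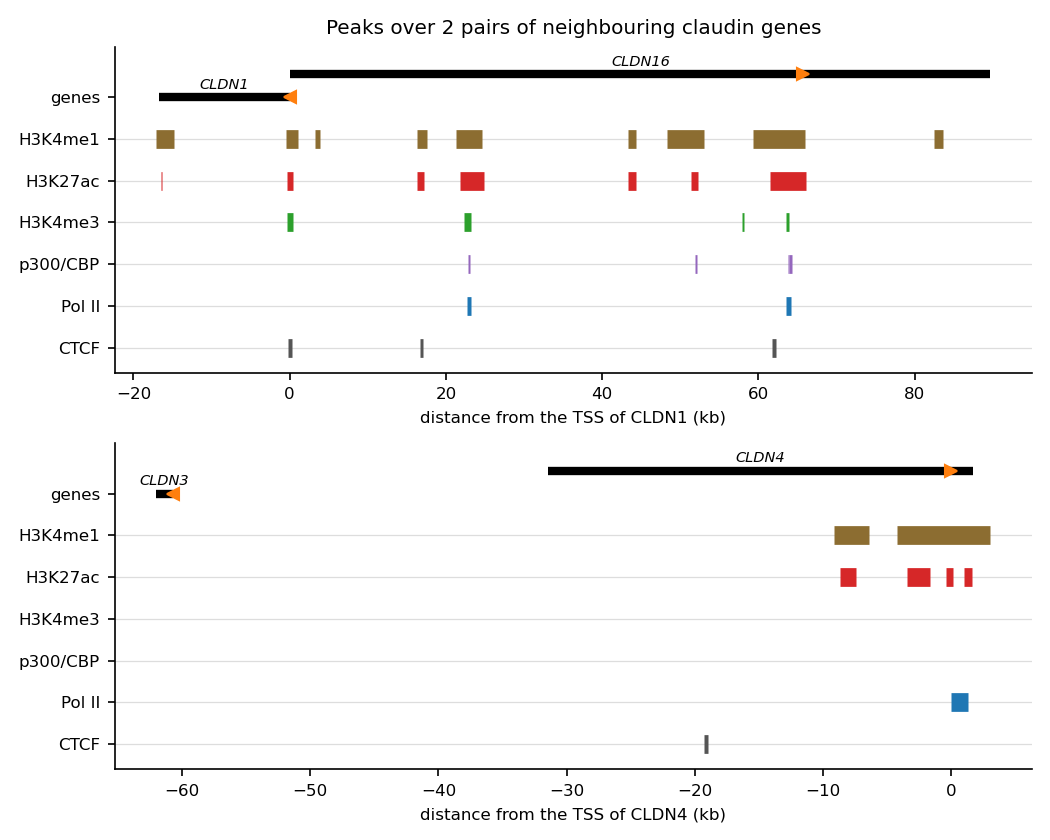
Peaks of the 6 lists (rows, coloured bars) over the gene models (black bars, orange arrows at the canonical TSS pointing along the gene) of CLDN1 and CLDN16 (top, kb from the CLDN1 TSS) and of CLDN3 and CLDN4 (bottom, kb from the CLDN4 TSS). Peaks are drawn for the span of the genes. CLDN3 has none, and those of CLDN4 lie around its TSS and farther upstream, up to a CTCF peak 19.0 kb away.

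CLDN3 and CLDN4 are close relatives within a span of 63.7 kb on chromosome 7, and only CLDN4 was marked. The window of CLDN3 held no peak, its nearest H3K4me1, H3K27ac and H3K4me3 peaks lay 27.1, 30.6 and 30.6 kb downstream, and it had no cAE and 2 cIEs within 50 kb. Its promoter was rich in CpG, with an observed over expected ratio of 0.799 over 1 kb, where the ratio of CLDN4 was 0.446. The 250 bases before the CLDN3 TSS (chr7:73184601-73184850, hg19, minus strand) are shown as a CpG-rich promoter without a peak. They held 19 CpG and no CAGGTG, the E-box to which the SNAI and ZEB repressors bind, and the 1 such match of CLDN3 lay in the 50 bases after the TSS.

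CLDN3 promoter: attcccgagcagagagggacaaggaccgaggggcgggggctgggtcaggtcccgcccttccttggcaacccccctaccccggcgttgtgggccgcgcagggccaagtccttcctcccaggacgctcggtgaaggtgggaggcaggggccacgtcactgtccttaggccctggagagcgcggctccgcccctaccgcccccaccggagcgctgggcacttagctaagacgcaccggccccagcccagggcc

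The remaining claudins without H3K27ac differed in what lay near them. CLDN5, the claudin of blood vessels, held 2 Pol II peaks and no histone mark in its window, a pattern seen in 1.04% of all windows. These covered 868 and 550 bp of the window on either side of the TSS, and the nearest H3K27ac was 43.6 kb away. H3K4me1 was the only histone mark in the windows of CLDN9 (1523 bp), CLDN25 (1333 bp), CLDN14 (681 bp) and CLDN20 (350 bp), and in that of TJP3 (1831 bp). These 5 genes are 11.6% of the group (5.07 to 24.5), against 5.55% of all genes. CLDN9, CLDN34, PKP1 and CLDN20 had the most H3K27ac within 50 kb of their bodies among the cIPs, with 13100, 7392, 6850 and 6700 bp. For CLDN9 that stretch held 11 other starts, whereas for CLDN34, PKP1 and CLDN20 it held 1.

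CLDN8 and CLDN17, neighbouring genes on chromosome 21, had the farthest H3K27ac and Pol II peaks of the group. Their shared span of 50.5 kb held 1 CTCF peak and no other, and the nearest H3K27ac peak lay 403 kb from CLDN8 and 453 kb from CLDN17. The nearest Pol II peak lay 865 and 816 kb away, while an H3K4me3 peak lay 69.0 kb from CLDN8 and 19.7 kb from CLDN17. CLDN22 and CLDN24, which lie side by side on chromosome 4, also had empty windows but shared 3 cAEs within 50 kb, 1 of them with p300/CBP. The TSSs of the 25 cIPs lay 3.86 to 453 kb from H3K27ac with a median of 18.2 kb, where the median for all cIPs was 37.8 kb.

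Among the desmosomal cadherins, 1 gene of each neighbouring set was marked at its promoter. DSC3, DSC2 and DSC1 lie within 173 kb and DSG1, DSG4, DSG3 and DSG2 within 231 kb of chromosome 18. DSC2 and DSG2 are the forms found in all desmosome-bearing tissues, including simple epithelia and heart, while the others belong chiefly to stratified epithelia. DSG2 (TSS 29078140, plus strand) carried 1850 bp of H3K27ac, 1950 bp of H3K4me3 and 650 bp of Pol II over its TSS. DSC2 (TSS 28682384, minus strand) carried 1650 bp of H3K4me3 over its TSS, with H3K27ac, Pol II and CTCF peaks of 1400, 250 and 250 bp just inside the gene. The windows of DSC1, DSC3, DSG1, DSG3 and DSG4 held no peak of any list.

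**Figure D4:**
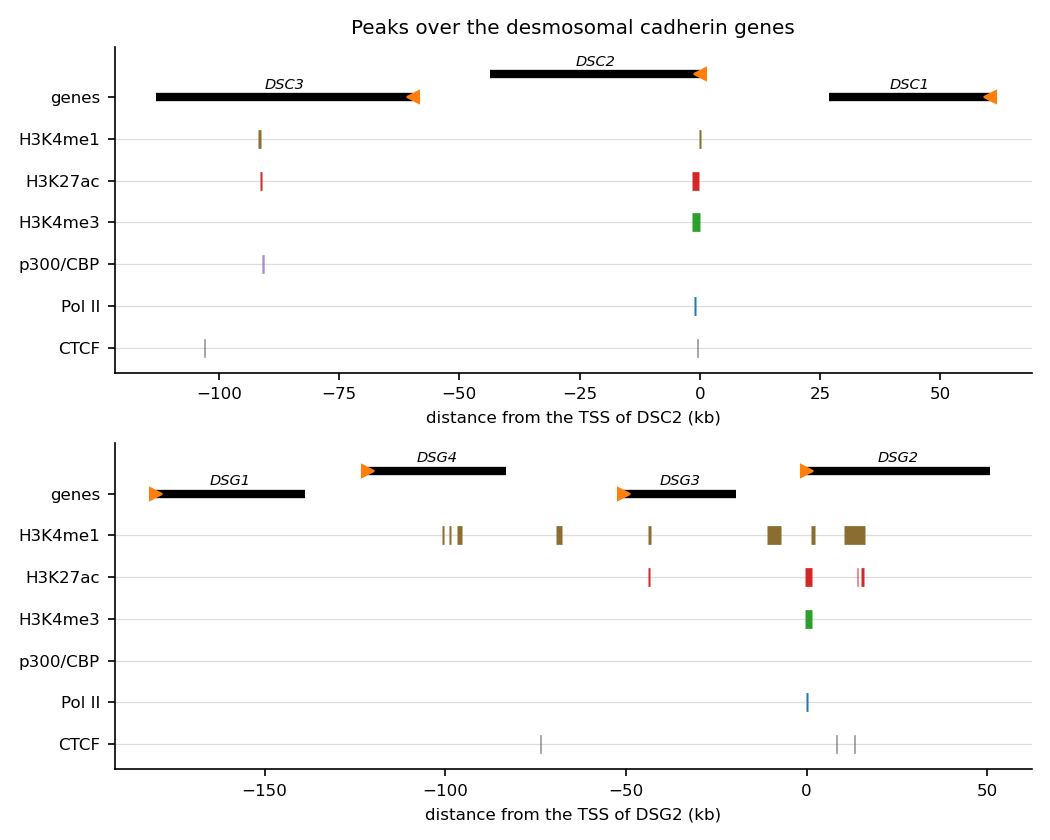
Peaks of the 6 lists (rows, coloured bars) over the gene models (black bars, orange arrows at the canonical TSS) of the desmocollins (top, kb from the DSC2 TSS) and the desmogleins (bottom, kb from the DSG2 TSS). H3K4me3 and Pol II appear only at the starts of DSC2 and DSG2 in these spans, and p300/CBP only within DSC3.

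Away from the promoters, each of the 7 cadherin genes had 1 or 2 cAEs in its body or within 50 kb (100%, 64.6 to 100), where 69.0% of all genes had at least 1. The interval held the share of all genes. Neighbours shared some of these cAEs, as DSC2 did with DSC3 and DSG2 with DSG3 and DSG4, so the genes are not independent. The body of DSC3 held an H3K27ac peak of 300 bp and 2 p300/CBP peaks of 100 and 150 bp beside it (chr18:28591401-28591501 and chr18:28591551-28591701), and the span of the desmogleins held no p300/CBP peak. The body of DSG3 held 1 H3K27ac peak of 600 bp at 6.55 kb from the TSS. The bodies of DSG4 and DSG1 held no H3K27ac.

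The promoters of DSG2 and DSG3 also differed in sequence. They are shown as the 250 bases before each TSS, chr18:29077890-29078139 and chr18:29027454-29027703 of hg19, both on the plus strand, with CAGGTG and its reverse complement in capitals. The DSG2 bases had 75.2% G and C, 26 CpG and 2 E-box matches, and the DSG3 bases 42.8%, 4 and none.
DSG2 promoter: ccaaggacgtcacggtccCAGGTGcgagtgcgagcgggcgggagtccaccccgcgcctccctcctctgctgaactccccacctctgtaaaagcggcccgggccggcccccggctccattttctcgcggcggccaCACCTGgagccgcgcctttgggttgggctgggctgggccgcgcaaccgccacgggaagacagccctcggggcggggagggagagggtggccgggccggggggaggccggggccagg
DSG3 promoter: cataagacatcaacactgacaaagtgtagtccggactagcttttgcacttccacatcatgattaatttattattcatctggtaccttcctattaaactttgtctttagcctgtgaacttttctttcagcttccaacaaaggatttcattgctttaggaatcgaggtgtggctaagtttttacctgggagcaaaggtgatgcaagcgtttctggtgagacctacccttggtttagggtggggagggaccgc

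DSC3 went against this contrast. Its promoter was no poorer in CpG than that of DSC2 (ratios over 1 kb of 0.844 and 0.733), yet only DSC2 held peaks in its promoter window.

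Of the desmosomal plaque genes, 3 carried wide marks over their starts. DSP, which encodes desmoplakin, the link to keratin, had H3K27ac, H3K4me3 and Pol II over its TSS covering 2750, 3000 and 2503 bp of the window. PKP3, a plakophilin of most epithelia, had 2958, 2550 and 2150 bp of the same lists, and PKP2, the plakophilin of heart and simple epithelia, 2390, 2440 and 700 bp with a CTCF peak of 100 bp. JUP, which encodes plakoglobin and is shared with adherens junctions, was covered less, with 700 bp of H3K27ac and 800 bp of H3K4me3 inside the gene, a Pol II peak of 350 bp over the TSS and a CTCF peak of 300 bp beside it. PKP1, the plakophilin of stratified epithelia, had no peak in its window. It nevertheless had 3 cAEs, at 5.93, 13.7 and 21.3 kb upstream, of which the middle one held p300/CBP, and 11 cIEs.

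The MARVEL proteins were split as well. OCLN, which encodes occludin, carried 2216 bp of H3K27ac, 2266 bp of H3K4me3 and 1600 bp of Pol II, and a cAE of 10300 bp began 1.58 kb inside the gene and was the widest of the 77 cAEs near the group. MARVELD2, which encodes tricellulin, the protein of three-cell contacts, held only an H3K4me1 and an H3K4me3 peak of 300 bp each at the same place. It was the 1 gene of the group with H3K4me3 and no H3K27ac, a state of 2.68% of all genes. MARVELD3 had an empty window and no cAE or cIE within 50 kb, with its nearest H3K27ac 18.2 kb upstream.

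Among the scaffolds, TJP1, which encodes ZO-1, carried 2730 bp of H3K27ac, 2480 bp of H3K4me3 and 1550 bp of Pol II. The body of TJP1, 270 kb long, and its flanks held 8 cAEs and 19 cIEs, the most of any of the 43 genes for either kind. The cAE 110 kb upstream of its canonical TSS, inside the longer gene model, held 2 p300/CBP peaks. TJP3, the scaffold ZO-3 of epithelia, was a cIP with 1831 bp of H3K4me1, and became a cAP when any TSS of its basic transcripts was allowed. F11R had all of H3K4me1, H3K27ac, H3K4me3 and Pol II over its TSS, at 3000, 2200, 2000 and 700 bp.

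TJP3 is shown for the CTCF peak near it, which was 450 bp wide and lay 1.93 kb upstream of the TSS. The central 300 bases are given (chr19:3706076-3706375, hg19, plus strand), with capitals at a match to the CTCF core motif on the minus strand.
TJP3 CTCF peak: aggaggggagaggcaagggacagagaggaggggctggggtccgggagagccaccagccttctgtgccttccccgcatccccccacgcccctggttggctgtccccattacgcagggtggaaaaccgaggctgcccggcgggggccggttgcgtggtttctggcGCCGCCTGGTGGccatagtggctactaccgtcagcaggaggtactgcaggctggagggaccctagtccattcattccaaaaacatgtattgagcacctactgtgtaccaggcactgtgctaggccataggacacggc

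Counted over gene bodies, H3K27ac was found in 22 of the 43 genes (51.2%, 36.8 to 65.4) against 69.8% of all genes, H3K4me3 in 19 (44.2%, 30.4 to 58.9) against 69.3%, and Pol II in 18 (41.9%, 28.4 to 56.7) against 63.6%. Bodies include the start of the gene, so these counts partly repeat those of the promoter windows. Without the 1.5 kb next to the TSS they were 21, 13 and 8, a setting not counted over all genes. CTCF was found in 19 bodies (44.2%) against 50.6%, H3K4me1 in 28 (65.1%, 50.2 to 77.6) against 76.5%, and p300/CBP in 6 (14.0%, 6.56 to 27.3) against 10.9%. CLDN2, CLDN10, DSC3 and TJP1 had 2 such peaks each, and CLDN16 had the most, with 5. In the 50 kb on either side the picture differed, as 39 of the 43 genes had an H3K27ac peak there (90.7%, 78.4 to 96.3) against 78.0% of all genes. The 4 without one were CLDN8, CLDN10, CLDN17 and DSC3. p300/CBP was found in the flanks of 12 genes (27.9%, 16.7 to 42.7) against 18.4%, an interval that held the share of all genes. H3K4me1 was found in the flanks of 40 genes (93.0%) against 89.9%, H3K4me3 of 28 (65.1%) against 72.2%, Pol II of 27 (62.8%) against 69.9%, and CTCF of 38 (88.4%) against 86.4%. When peaks in the promoter windows of other genes were left out, 32 of the 43 genes had H3K27ac in their flanks (74.4%, 59.8 to 85.1) against 63.0% of all genes, an interval that held the share of all genes.

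A cAE lay in the body or within 50 kb of 35 genes (81.4%, 67.4 to 90.3) against 69.0% of all genes, and a cIE of 37 (86.0%, 72.7 to 93.4) against 86.5%. Both intervals held the share of all genes. The 8 without a cAE were CLDN3, CLDN7, CLDN8, CLDN15, CLDN17, CLDN25, MARVELD2 and MARVELD3. The cAPs of the group had a median of 3 cAEs (0 to 8) and the cIPs 1 (0 to 3), where the medians for all genes were 2 and 1. In all, 77 cAEs and 121 cIEs were counted once each, with some shared between neighbours. p300/CBP was present in 13 of the 77 cAEs (16.9%, 10.1 to 26.8) against 20.6% of all cAEs, and CTCF in 18 (23.4%, 15.3 to 34.0) against 16.4%, and both intervals held the share of all cAEs. The cAEs near the group were 2650 bp wide at the median, and all cAEs 2550 bp. The 13 with p300/CBP lay near CLDN1 and CLDN16, CLDN2, CLDN4, CLDN10, CLDN20, CLDN22 and CLDN24, CLDN23, PKP1, PKP2 and TJP1.

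Promoter sequence was set beside these marks. A CpG ratio of at least 0.6 with at least 50% G and C over 1 kb was found in 21 of the 43 promoters (48.8%, 34.6 to 63.2) against 65.0% of all promoters. For claudins it was 8 of 24 (33.3%, 18.0 to 53.3) and for the others 13 of 19 (68.4%, 46.0 to 84.6). H3K27ac stood at 13 of the 21 CpG-rich promoters (61.9%) against 81.3% of all CpG-rich ones, and at 5 of the 22 CpG-poor ones (22.7%) against 24.5%. The CpG-rich promoters without H3K27ac were those of CLDN3, CLDN5, CLDN10, CLDN11, DSC3, PKP1, MARVELD2 and MARVELD3. The CpG-poor ones with it were those of CLDN2, CLDN4, CLDN12, CLDN16 and PKP3. Over 3 kb instead, 12 of the 43 promoters were CpG-rich (27.9%, 16.7 to 42.7) against 35.2% of all promoters, an interval that held the share of all, and H3K27ac stood at 9 of the 12 against 80.8% of all CpG-rich ones.

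**Figure D5:**
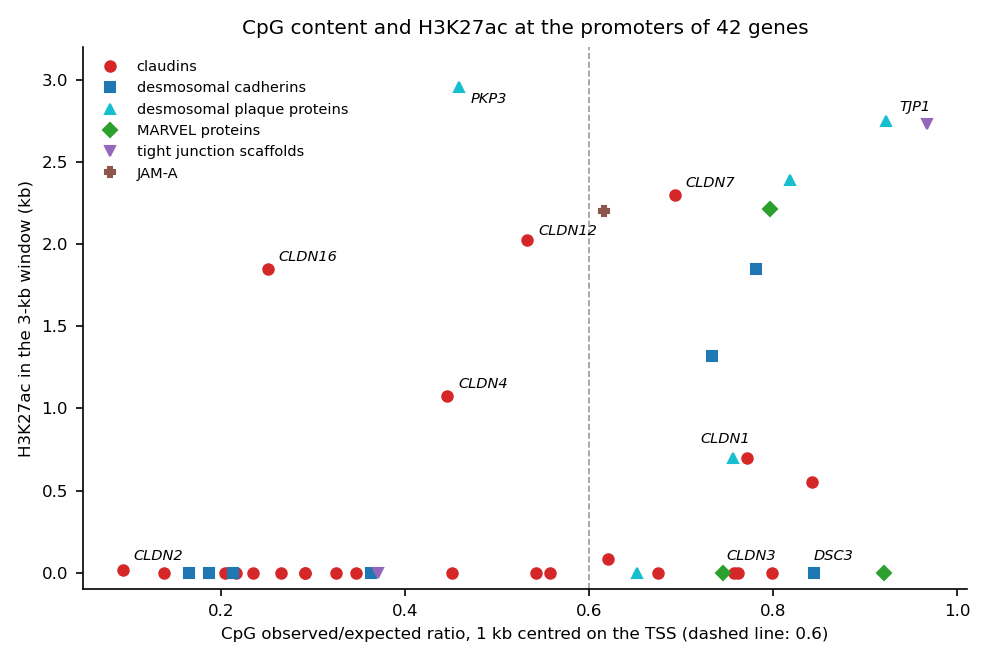
H3K27ac in the 3-kb window (y axis, kb) against the CpG observed over expected ratio of the 1 kb centred on the TSS (x axis) for 42 of the genes, with symbols by role and a dashed line at 0.6. PKP3, CLDN12, CLDN16 and CLDN4 carry H3K27ac left of the line, and CLDN3 and DSC3 lie at 0 kb far to its right.

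The E-box CAGGTG, searched on both strands, was present in the 300-base promoters of 18 of the 43 genes (41.9%, 28.4 to 56.7) against 20.3% of all promoters. It was present in 10 of the 18 cAPs (55.6%, 33.7 to 75.4) and in 8 of the 25 cIPs (interval 17.2 to 51.6), where the shares for all genes were 17.6% and 24.7%. CLDN7 held 5 matches, F11R and MARVELD3 held 3 each, and CLDN8, DSG2, DSP, OCLN and PKP3 held 2 each. A match is a string of letters and no binding was measured. TGANTCA was present in 2 of the 43 promoters (4.65%, 1.28 to 15.5), those of CLDN4 and CLDN15, against 5.40% of all. The CTCF core motif was present in 1, that of MARVELD2, against 2.75%. In the 200 bp around the centres of the 25 p300/CBP peaks within 50 kb of the genes, TGANTCA was present in 12 (48.0%, 30.0 to 66.5), against 33.1% of all p300/CBP peaks. Among p300/CBP peaks in cAEs it was present in 7 of the 16 near the genes (43.8%, 23.1 to 66.8) and in 49.9% of all.

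Related genes were read in the same way, with 57 genes found. They took in other genes of cell junctions and polarity, together with 5 repressors of junction genes. A further 8 regulators were grouped as activators, whether or not they act on junction genes directly. H3K27ac stood in 38 of their 57 windows (66.7%, 53.7 to 77.5) and H3K4me3 in 41 (71.9%, 59.2 to 81.9), and both intervals held the shares of all genes. By kind, H3K27ac stood in 8 of 12 adherens junction genes, 10 of 15 other tight junction genes, 9 of 11 polarity genes and 4 of 6 other desmosome genes. CDH1, which encodes E-cadherin, and CDH2, which encodes N-cadherin, the cadherin of mesenchymal cells, had no peak of any list in their windows. Of 5 repressors of junction genes, SNAI1, SNAI2, ZEB1 and ZEB2 were cAPs and TWIST1 was not. Of the 8 regulators in the activator group, ELF3, TP63 and KLF4 were cAPs, while GRHL1, GRHL2, GRHL3, OVOL1 and OVOL2 were not. The share of cAPs was 80.0% for the repressors (37.6 to 96.4) and 37.5% for the activator group (13.7 to 69.4). These intervals overlap and each holds the share of all genes, 61.4%, so the repressors and the activator group cannot be ranked from these counts. H3K27ac covered 400 bp of the ELF3 window and 250 bp of the TP63 window, neither of which held H3K4me3.

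The share of each window made of 32-base words that occur elsewhere in the genome, where reads of that length cannot be placed uniquely, ranged from 0 to 26.9% with a median of 1.35%. It was highest at TJP3 (26.9%), CLDN6 (23.2%), CLDN22 and CLDN24 (12.3% each), DSG3 (11.8%) and MARVELD3 (10.0%). Where a list has no peak in these windows, that absence is the least certain. TJP3 and CLDN6 did hold peaks of some lists. The lists do not give the read length, and the part of repeated words in the result was not tested.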

How the data were processed

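ChIP-seq had been made from MDA-MB-231 cells, with 13 samples in all. According to the paper's methods, the authors aligned reads to hg19 with BWA-backtrack (the submitters' processing notes name Bowtie2), merged replicates and called peaks by thresholds on signal. The names of the deposited lists also mention uniquely mapped reads and 50-bp bins. They mention background subtraction for the histone marks and p300/CBP, but not for Pol II and CTCF, so the lists may not be alike in this. The lists hold the chromosome, start and end of each peak and no count or score, so depth and replicate spread are unknown. Starts and ends are 1 past a multiple of 50, and ends were read as the first base after the peak.

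Peaks were counted with Python 3.11.15 and NumPy 2.4.6, and figures drawn with matplotlib 3.10.9. Genes and canonical TSSs came from GENCODE release 44 on GRCh37. Interval functions were checked on simulated data. No test was run, since each antibody has 1 list. The genes and related lists were chosen with earlier results of these data known. The genes given in full were all with H3K27ac in the window, those without it that held another factor or H3K4me3, the 4 with the most H3K27ac nearby and the 4 with the most H3K4me1, and CLDN1, CLDN3, CLDN4 and CLDN7. For 1 gene, counted in the totals, single results are not reported here. Printed promoters avoid exons of any transcript and chromosome 8. Alternatives changed window, flank, overlap, peak width, TSS set and cAE definition. RNA and Fra-1 data were not analysed here.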

Additional observations from a re-analysis of the deposited data

How the results depend on the processing

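No paired analysis was possible because each list had been called on merged replicates, which also kept any replicate from being left out. Of 96 alternative values for 28 counts, 75 stayed within 1.5 times the value given above. The counts of genes with H3K27ac and H3K4me3 in the 3-kb window were among these under each alternative, at 14 to 19 and 12 to 17. The other 21 follow. With a 1-kb window, H3K4me1 was found in 14 genes and p300/CBP in 0, and in the related genes H3K4me1 in 14 and CTCF in 4. With a 5-kb window, or with any TSS of a basic transcript, p300/CBP was found in 2. With at least 300 bp covered, p300/CBP was found in 0 windows and CTCF in 2. When peaks narrower than the median width of each list were dropped, the windows of 13 genes held H3K4me1, of 7 Pol II and of 2 CTCF, the bodies of 8 held Pol II and of 11 CTCF, and the windows of 23 related genes held H3K4me1. Without the 1.5 kb next to the TSS, Pol II was found in 8 bodies. With peaks at other promoters left out, H3K4me3 was found in 16 flanks. With at least 50% of the H3K4me1 region covered by H3K27ac, 23 genes had a cAE. Over 3 kb, 12 promoters were CpG-rich. Apart from the CpG count, all genes were not counted under these settings for these lists. The shifts can therefore not be read as particular to the group, and their cause was not tested. The genes with H3K27ac and without H3K4me3, a count repeated after the data were seen, numbered 2 with a 1-kb window, 2 with a 5-kb window and 2 with at least 300 bp covered. Another later added setting, the 38 genes whose window touches no other window, gave 16 with H3K27ac (42.1%). Thresholds could not be varied, as the lists hold no value per peak, and weak peaks below the authors' thresholds are not seen.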
